A study of Mus musculus with 10 samples.

Results

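Immune checkpoint receptors and ligands are described here in whole melanoma tumors with and without cyclooxygenase (COX) activity in the cancer cells and, for COX-deficient tumors, with and without NK cells in the host. The members are 10 named mouse genes, *Cd274*, *Pdcd1lg2*, *Pdcd1*, *Ctla4*, *Lag3*, *Havcr2*, *Lgals9*, *Cd80*, *Cd86* and *Ido1*, listed by name. All 10 had a row among the 45706 genes of the count table. RNA was extracted from bulk tumors 4 days after *Braf*-mutant melanoma cells were injected into C57BL/6 hosts that were 8 weeks old. The cells were either the COX-competent parental line (*Ptgs*+/+) or a line lacking *Ptgs1* and *Ptgs2*, the genes of COX-1 and COX-2 (*Ptgs*−/−). Mice with NK cells carried 4 of the COX-competent tumors and 3 of the COX-deficient ones, and 3 further COX-deficient tumors came from mice given anti-NK1.1 (clone PK136, 200 µg) and anti-asialo GM1 (30 µg) on day 0 and day 2. NK-depleted hosts bearing *Ptgs*+/+ tumors were not analysed here, so depletion could be compared within *Ptgs*−/− tumors only. Antibody to asialo GM1 is known to bind some cells other than NK cells. All libraries were made from transcript 3′ ends (QuantSeq), which gives about 1 fragment per transcript whatever its length.

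Checkpoint receptors restrain lymphocytes that have met their antigen, and their ligands sit mostly on myeloid cells and on tumor cells. PD-1 (*Pdcd1*) binds PD-L1 (*Cd274*) and PD-L2 (*Pdcd1lg2*). CTLA-4 (*Ctla4*) competes with the activating receptor CD28 for CD80 (*Cd80*) and CD86 (*Cd86*), which are displayed by antigen-presenting cells. LAG-3 (*Lag3*) binds MHC class II, and TIM-3 (*Havcr2*), carried by exhausted T cells and by many myeloid cells, has galectin-9 (*Lgals9*) among its ligands. IDO1 (*Ido1*) is not a receptor but an enzyme that opens the kynurenine pathway by breaking down tryptophan. Several of these genes, *Cd274* and *Ido1* above all, are known to be induced by interferon-γ (IFN-γ), which NK cells and T cells release.

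The 2 PD-1 ligand genes lie next to each other on chromosome 19 of GRCm38 (*Cd274* from 29367455 to 29388095 and *Pdcd1lg2* from 29410919 to 29471161, both on the plus strand), and the genes of the CD28 ligands lie on chromosome 16 (*Cd86* from 36603869 to 36666081, minus strand, and *Cd80* from 38455561 to 38496335, plus strand). *Ctla4* (60887000 to 60915832, plus strand) and *Pdcd1* (94038305 to 94052553, minus strand) are on chromosome 1. *Havcr2* (46454935 to 46481255, plus strand) and its ligand gene *Lgals9* (78962974 to 78984946, minus strand) are on chromosome 11. *Lag3* is on chromosome 6 (124904361 to 124911705, minus strand) and *Ido1* on chromosome 8 (24584136 to 24597009, minus strand). All are annotated as protein-coding. An antisense gene overlaps *Cd274* and another overlaps *Pdcd1lg2*, and a pseudogene on the same strand overlaps *Ctla4*, so counts of these genes carry some uncertainty.

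The sources used here held RefSeq promoter windows for 7 of the 10 members, all but *Lag3*, *Cd86* and *Ido1*. They were read for the letters of interferon-linked motifs because the members include known IFN-γ targets. The 250 bases before the transcription start are shown for both PD-1 ligand genes, for *Lgals9* and, as the member whose level moved least, for *Havcr2* (build GRCm38.p6, 5′ to 3′ on the strand of the gene). Capitals mark the IRF core AANNGAAA on either strand.
Cd274, chr19:29367188-29367437, plus strand: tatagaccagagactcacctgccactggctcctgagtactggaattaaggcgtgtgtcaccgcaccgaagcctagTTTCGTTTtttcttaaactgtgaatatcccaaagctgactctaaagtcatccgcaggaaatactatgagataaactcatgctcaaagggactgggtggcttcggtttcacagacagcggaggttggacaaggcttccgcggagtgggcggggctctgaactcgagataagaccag
Pdcd1lg2, chr19:29410669-29410918, plus strand: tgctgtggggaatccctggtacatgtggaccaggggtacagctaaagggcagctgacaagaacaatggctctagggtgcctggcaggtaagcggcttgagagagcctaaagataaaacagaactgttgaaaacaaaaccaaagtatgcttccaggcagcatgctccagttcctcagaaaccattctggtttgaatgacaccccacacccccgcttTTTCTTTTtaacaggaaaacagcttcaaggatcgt
Lgals9, chr11:78984925-78985174, minus strand: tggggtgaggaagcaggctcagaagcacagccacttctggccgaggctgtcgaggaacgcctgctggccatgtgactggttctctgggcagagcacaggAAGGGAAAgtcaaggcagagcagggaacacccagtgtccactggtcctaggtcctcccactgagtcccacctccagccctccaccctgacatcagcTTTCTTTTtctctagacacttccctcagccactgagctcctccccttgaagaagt
Havcr2, chr11:46454681-46454930, plus strand: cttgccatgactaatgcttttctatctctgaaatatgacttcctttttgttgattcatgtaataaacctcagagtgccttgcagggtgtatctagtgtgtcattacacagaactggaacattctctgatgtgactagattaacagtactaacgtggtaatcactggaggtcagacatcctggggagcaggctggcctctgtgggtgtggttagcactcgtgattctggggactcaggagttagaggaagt

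The IRF core stood in 4 of the 7 windows, those of *Cd274* (−175 to −168, counted from the transcription start), *Pdcd1lg2* (−35 to −28), *Pdcd1* (−28 to −21) and *Lgals9* (−151 to −144 and −55 to −48). It stood in 21.3% of all 32851 windows of this length. The STAT motif GAS (TTCNNNGAA) was in none of the 7 and in 7.02% of all windows, and *Ctla4*, *Cd80* and *Havcr2* had neither motif there. These matches describe the letters only, and neither a match nor its absence says whether a factor binds.

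The libraries held between 8150556 and 12839174 counts, so that 3 counts, taken as the floor of detection, correspond to 0.234 to 0.368 CPM (the count scaled by the library total). *Ptgs1* and *Ptgs2* transcripts were lower in both *Ptgs*−/− groups than in *Ptgs*+/+ tumors (log2 fold change −0.76 and −2.62 for *Ptgs*−/− minus *Ptgs*+/+), although 3′ reads need not cover an edited site. *Ncr1*, which encodes the NK cell receptor NKp46, had no count in any of the 3 NK-depleted libraries. Comparisons used the quasi-likelihood test of edgeR on 14550 genes left by its low-count filter, and a gene "passed" at an adjusted p (Benjamini-Hochberg, FDR) at or under 0.05. Of the members, 8 were tested, and *Lag3* and *Ido1* fell under the filter. Positive differences mean higher in the group named first, and the 3 comparisons share groups, so that they are not independent. Replicates are separate tumors by their labels.

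Among *Ptgs*−/− tumors, the ligands *Cd274*, *Cd80*, *Cd86* and *Lgals9* were higher than in *Ptgs*+/+ tumors. *Ctla4* passed as well, with a log2 fold change above 1.5, but it had 1 to 4 counts in *Ptgs*+/+ libraries and met the low-count filter only through the groups where it was high, so that its call is given as a description. With *Ctla4* included, the count is 5 of the 8 tested members, all in the same direction, where 12.1% of all tested genes were higher and passed. A log2 fold change of at least 1.5 in size together with the adjusted p was reached by 4.15% of tested genes and by no member other than *Ctla4*. In 7 of the 8, all but *Havcr2*, each *Ptgs*−/− library was above each *Ptgs*+/+ library, as in 18.1% of tested genes. These 7 include *Ctla4* and *Pdcd1*, which both met the low-count filter only through *Ptgs*−/− libraries, so that their part in this count is a description. The median log2 fold change was 0.997 over the 8 members and −0.01 over all tested genes. No member passed between *Ptgs*−/− tumors with and without NK cells, and only *Cd80* passed between *Ptgs*−/− tumors of NK-depleted mice and *Ptgs*+/+ tumors.

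**Figure D1:**
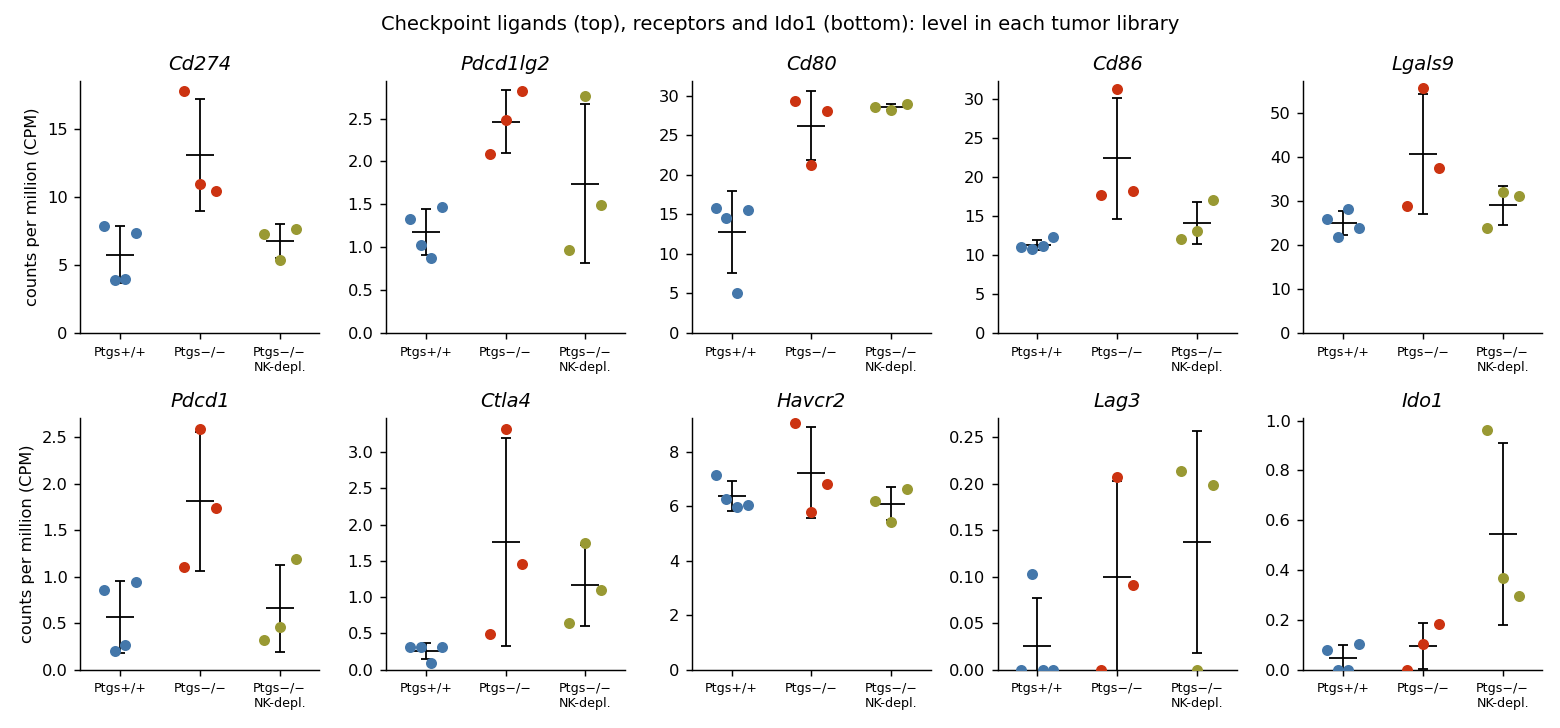
Level of each member in each library (points, in CPM on a linear axis from 0, 1 panel a gene) with the mean and SD of each group (black bars) in *Ptgs*+/+ (n = 4), *Ptgs*−/− (n = 3) and NK-depleted *Ptgs*−/− tumors (n = 3). *Cd274* and *Cd86* of *Ptgs*−/− tumors sit above both other groups, *Cd80* stays high after NK depletion, and *Ido1* is highest in the 3 NK-depleted libraries (0.298 to 0.963 CPM).

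PD-L1 was the more abundant PD-1 ligand transcript. *Cd274* stood at 7.87, 3.92, 3.95 and 7.32 CPM for *Ptgs*+/+ tumors, at 17.8, 10.97 and 10.4 CPM in those of *Ptgs*−/− tumors and at 7.28, 5.35 and 7.65 CPM in those of NK-depleted mice. The *Ptgs*−/− group thus lay above both others without overlap, and the NK-depleted group lay within the range of *Ptgs*+/+ tumors. The mean was 5.76 ± 2.13 CPM (SD, n = 4) in *Ptgs*+/+, 13.1 ± 4.11 (SD, n = 3) in *Ptgs*−/− and 6.76 ± 1.23 (SD, n = 3) in NK-depleted *Ptgs*−/− tumors. *Ptgs*−/− exceeded *Ptgs*+/+ tumors 2.16-fold (log2 fold change 1.11, SE 0.29, edgeR adjusted p = 0.0171). Without *Ptgs*−/− replicate 1, the highest library, the log2 fold change was 0.82 and edgeR's adjusted p 0.0662. Against NK-depleted tumors the log2 fold change was 0.92 (SE 0.31), which did not pass (edgeR adjusted p = 0.265), and NK-depleted against *Ptgs*+/+ tumors gave 0.19 (SE 0.30).

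PD-L2 transcripts were scarcer. *Pdcd1lg2* had 1.32, 1.03, 0.878 and 1.46 CPM in *Ptgs*+/+ libraries, 2.09, 2.48 and 2.83 CPM in those of *Ptgs*−/− tumors and 0.963, 2.77 and 1.49 CPM in NK-depleted libraries, from 9 to 31 counts each. All *Ptgs*−/− libraries were above all *Ptgs*+/+ libraries, and the NK-depleted libraries ranged over both groups. The *Ptgs*−/− minus *Ptgs*+/+ log2 fold change was 1.01 (SE 0.35), close in size to that of *Cd274*, but did not pass (edgeR adjusted p = 0.0603), and NK-depleted tumors differed from *Ptgs*+/+ by 0.55 (SE 0.37) and *Ptgs*−/− from NK-depleted tumors by 0.46 (SE 0.37). The count ratio of *Cd274* to *Pdcd1lg2*, chosen after the levels had been seen, was 3.80 to 5.94 in *Ptgs*+/+, 3.68 to 8.53 in *Ptgs*−/− and 1.93 to 7.56 in NK-depleted libraries, and each pair of groups overlapped (exact two-sided permutation p = 0.8 in each comparison).

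PD-1 itself, the receptor of both ligands, followed at low counts. It met the low-count filter only through *Ptgs*−/− libraries, where it was high, so that its differences are given as a description. Its counts were 11, 2, 3 and 9 for *Ptgs*+/+ tumors, then 9, 25 and 19 for *Ptgs*−/− tumors with NK cells, and 3, 5 and 12 after NK depletion. In CPM the *Ptgs*−/− libraries (1.10, 2.59 and 1.73) were above every *Ptgs*+/+ library (0.206 to 0.942) and overlapped the NK-depleted libraries (0.321 to 1.19). The *Ptgs*−/− minus *Ptgs*+/+ log2 fold change of 1.60 (SE 0.54) did not pass (edgeR adjusted p = 0.0546), nor did that of 1.42 (SE 0.59) against NK-depleted tumors (edgeR adjusted p = 0.388). With a library left out, the first passed in 3 of 10 fits (without *Ptgs*+/+ replicate 4, *Ptgs*−/− replicate 1 or NK-depleted replicate 3, lowest edgeR adjusted p = 0.0434) and was farthest from passing without *Ptgs*−/− replicate 2 (log2 fold change 1.26, edgeR adjusted p = 0.216).

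CTLA-4 showed the largest fitted difference of the 8 members between *Ptgs*−/− and *Ptgs*+/+ tumors and rested on few counts. *Ctla4* counts were 4, 3, 1 and 3 for *Ptgs*+/+ tumors, then 4, 32 and 16 for *Ptgs*−/− tumors with NK cells, and 6, 19 and 11 after NK depletion. In CPM these were 0.0878 to 0.314, then 0.491, 3.31 and 1.46, then 0.642, 1.75 and 1.09, so that both *Ptgs*−/− groups were above *Ptgs*+/+ and overlapped each other. The *Ptgs*−/− minus *Ptgs*+/+ log2 fold change was 2.70 (SE 0.66, edgeR adjusted p = 0.0129). Without *Ptgs*−/− replicate 2, which alone held 32 counts, it was 1.89 and did not pass (edgeR adjusted p = 0.0781). Since 3 of the 4 *Ptgs*+/+ libraries were at or under the floor of 3 counts, *Ctla4* entered the test through the other groups and left it when these 2 groups were analysed alone. NK-depleted *Ptgs*−/− tumors differed from *Ptgs*+/+ by 2.13 (SE 0.69, edgeR adjusted p = 0.066), and depletion within *Ptgs*−/− tumors gave 0.56 (SE 0.58), which turned to −0.24 without *Ptgs*−/− replicate 2.

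CD86 and CD80 are the ligands that CTLA-4 shares with CD28. *Cd86* stood at 11.1, 10.8, 11.1 and 12.2 CPM in *Ptgs*+/+ libraries, 17.7, 31.2 and 18.1 in those of *Ptgs*−/− tumors and 12.1, 13.01 and 17.1 in NK-depleted libraries. The *Ptgs*−/− libraries were above all others, and the NK-depleted libraries began within the *Ptgs*+/+ range. *Cd86* exceeded *Ptgs*+/+ levels in *Ptgs*−/− tumors 1.90-fold (log2 fold change 0.93, SE 0.21, edgeR adjusted p = 0.00814), and was the member that kept this call in all 20 alternative fits. The differences of 0.65 (SE 0.22) between *Ptgs*−/− tumors with and without NK cells (edgeR adjusted p = 0.276) and of 0.28 (SE 0.21) between NK-depleted and *Ptgs*+/+ tumors (edgeR adjusted p = 0.438) did not pass.

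*Cd80* stood at 15.8, 14.5, 5.00 and 15.6 CPM in *Ptgs*+/+ libraries, with replicate 3 far below the others. It was 29.3, 21.2 and 28.1 CPM in those of *Ptgs*−/− tumors and 28.6, 28.2 and 29.0 CPM in NK-depleted libraries. Both *Ptgs*−/− groups were above every *Ptgs*+/+ library and overlapped each other. *Ptgs*−/− exceeded *Ptgs*+/+ by a log2 fold change of 0.98 (SE 0.30, edgeR adjusted p = 0.0326), and NK-depleted *Ptgs*−/− exceeded *Ptgs*+/+ tumors 2.20-fold (log2 fold change 1.14, SE 0.29, edgeR adjusted p = 0.0274). *Cd80* was the member that passed in this last comparison, where 6.63% of all tested genes were higher and passed. The first call was lost without *Ptgs*+/+ replicate 2 or any of the 3 *Ptgs*−/− libraries (edgeR adjusted p up to 0.0826). The second was lost when any of the 3 NK-depleted libraries was left out (edgeR adjusted p up to 0.0841). Between *Ptgs*−/− tumors with and without NK cells the log2 fold change was −0.15 (SE 0.31, edgeR adjusted p = 0.886). Leaving out *Ptgs*+/+ replicate 3 reduced the *Ptgs*−/− minus *Ptgs*+/+ value to 0.71 and the NK-depleted minus *Ptgs*+/+ value to 0.87.

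**Figure D2:**
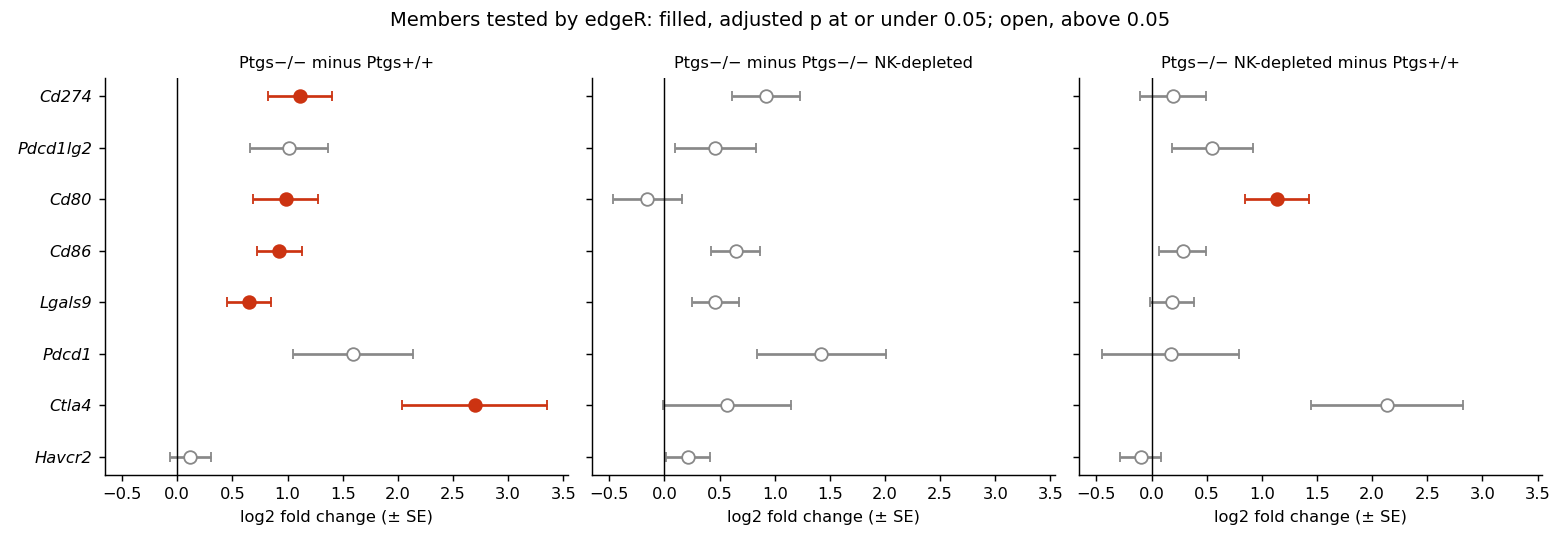
Log2 fold change (points) with its SE (bars) of the 8 tested members in 3 comparisons, from edgeR. Filled points passed at an adjusted p at or under 0.05, with 5 in *Ptgs*−/− minus *Ptgs*+/+, 0 in *Ptgs*−/− minus NK-depleted *Ptgs*−/− and 1, *Cd80*, in NK-depleted *Ptgs*−/− minus *Ptgs*+/+.

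Set against each other within a library, *Cd80* counts per *Cd86* count were 1.43, 1.34, 0.449 and 1.27 in *Ptgs*+/+ tumors, 1.66, 0.679 and 1.55 in *Ptgs*−/− tumors and 2.36, 2.17 and 1.70 in NK-depleted *Ptgs*−/− tumors. Every NK-depleted library was above every other library. The difference in mean log2 ratio was 1.01 between NK-depleted and *Ptgs*+/+ tumors (exact two-sided permutation p = 0.0571) and −0.77 between *Ptgs*−/− and NK-depleted tumors (exact two-sided permutation p = 0.1). Both are the smallest p that 3 against 4 and 3 against 3 libraries allow, so that neither could fall under 0.05, and the ratio was chosen after the levels had been seen.

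TIM-3 and its ligand galectin-9 follow. *Havcr2* ranged from 5.97 to 7.17 CPM over the *Ptgs*+/+ libraries, was 9.08, 5.79 and 6.84 CPM in those of *Ptgs*−/− tumors and ranged from 5.44 to 6.65 CPM in NK-depleted libraries. The 3 groups overlapped throughout, with log2 fold changes of 0.12 (SE 0.19), 0.22 (SE 0.20) and −0.10 (SE 0.19) in the 3 comparisons, and the first turned to −0.083 without *Ptgs*−/− replicate 1. *Lgals9* had the highest mean of the members in each group, although *Cd80* was above it in *Ptgs*−/− replicate 1 and NK-depleted replicate 1. It stood at 25.9, 21.8, 28.2 and 24.0 CPM in *Ptgs*+/+ libraries, at 29.0, 55.6 and 37.4 CPM in those of *Ptgs*−/− tumors and at 23.9, 32.0 and 31.2 CPM in NK-depleted libraries. The *Ptgs*−/− libraries were all above *Ptgs*+/+, by little in replicate 1 and by most in replicate 2, and overlapped the NK-depleted ones. *Lgals9* passed between *Ptgs*−/− and *Ptgs*+/+ tumors (log2 fold change 0.65, SE 0.20, edgeR adjusted p = 0.0364) and did not without *Ptgs*−/− replicate 2 (0.36, edgeR adjusted p = 0.166) or without *Ptgs*+/+ replicate 1, 2 or 4.

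LAG-3 and IDO1 transcripts were at the edge of detection. *Lag3* had no count in 5 of the 10 libraries and at most 2 in the others, so that no difference could be seen at this depth. *Ido1* counts were 1, 0, 0 and 1 for *Ptgs*+/+ tumors and 0, 1 and 2 for *Ptgs*−/− tumors with NK cells, all at or under the floor, and 9, 4 and 3 in NK-depleted libraries. The NK-depleted libraries (0.963, 0.369 and 0.298 CPM) were above every library of both other groups (exact two-sided permutation p = 0.0571 against *Ptgs*+/+ and p = 0.1 against *Ptgs*−/−, the smallest each allows). Counting error alone is large at such counts. Within *Ptgs*−/− tumors, *Ido1* was thus higher without NK cells and *Cd274* higher with them. That *Cd274* difference did not pass, and *Ido1* rested on 3 to 9 counts in the NK-depleted libraries.

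Between *Ptgs*−/− tumors with and without NK cells, 7 of the 8 tested members had a positive difference and none passed, where 1.44% of all tested genes passed in either direction. *Cd274*, *Cd86* and *Pdcd1* had an unadjusted edgeR p under 0.05, 3 of 8 against 11.2% of all tested genes. *Pdcd1* met the low-count filter only through *Ptgs*−/− libraries, where it was high, so that its part in this count is a description. *Cd274* and *Cd86* were above every NK-depleted library in every *Ptgs*−/− library, as were 10.4% of tested genes. Between NK-depleted *Ptgs*−/− and *Ptgs*+/+ tumors, *Ctla4* and *Cd80* did not overlap, as did not 15.1% of tested genes with the NK-depleted group higher. *Ctla4* met the low-count filter only through *Ptgs*−/− libraries with and without NK cells, so that its part here is a description. DESeq2, like edgeR, put no member past the threshold for depletion. A p above the threshold with 3 libraries a group does not show that depletion left these genes alone.

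The labels carry 2 experiment codes. The second holds *Ptgs*+/+ replicate 4 and *Ptgs*−/− replicate 3 only and gives no value of its own. Within the first code, the *Ptgs*−/− minus *Ptgs*+/+ log2 fold change was 1.42 for *Cd274* (edgeR adjusted p = 0.0255), 2.96 for *Ctla4* (edgeR adjusted p = 0.0446) and 1.13 for *Cd86* (edgeR adjusted p = 0.0168). It was 0.72 for *Lgals9* (edgeR adjusted p = 0.0857) and 1.07 for *Cd80* (edgeR adjusted p = 0.0861), which were as large as with all libraries but did not pass. With the code as a term in the model the same number of members, 5, passed.

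In bulk RNA, more cells of a type cannot be told apart from more RNA per cell. Many markers of cells that carry the members also rose in *Ptgs*−/− tumors, but not every member moved with them. *Havcr2* did not rise, and *Cd274* of NK-depleted tumors lay within the *Ptgs*+/+ range while macrophage and dendritic sums lay above it. Of 10 T cell markers, 7 were tested and each of these 7 rose in *Ptgs*−/− relative to *Ptgs*+/+ tumors, where 12.1% of all tested genes were higher and passed. Of the 7, *Cd3e*, *Cd5*, *Cd6*, *Cd8a* and *Cd8b1* had at most 9 counts in any *Ptgs*+/+ library. They met the low-count filter only through *Ptgs*−/− libraries, so that this count is a description. The summed level of the 10 markers was 2.98 to 5.23 CPM in *Ptgs*+/+, 13.1 to 35.2 in *Ptgs*−/− and 8.74 to 14.8 in NK-depleted *Ptgs*−/− libraries, with *Themis* at 0 in *Ptgs*+/+ and *Trat1* at 0 in NK-depleted tumors. *Cd8a* and *Cd3d* led by p. Of 10 macrophage markers, among them *Adgre1* and *C1qc*, 7 rose from *Ptgs*+/+ to *Ptgs*−/− tumors, with sums of 1850 to 2185, 2915 to 4522 and 2662 to 3017 CPM. Of 7 dendritic cell markers, among them *Batf3* and *Xcr1*, 4 were higher, with sums of 185 to 322, 471 to 946 and 467 to 708 CPM. Most of the dendritic sum was *Clec10a* alone (group means of 226, 615 and 550 CPM). None of the tested markers of these 3 lists passed between *Ptgs*−/− tumors with and without NK cells, where 0.515% of all tested genes were higher and passed. In that comparison 1 of 9 migratory dendritic cell markers was higher with NK cells, the chemokine gene *Ccl22* (log2 fold change 1.36, edgeR adjusted p = 0.0456). *Ccr7*, the homing receptor of these cells, had 1.11 (edgeR adjusted p = 0.0634). Their summed level was 228 to 236 CPM in *Ptgs*+/+, 305 to 348 in *Ptgs*−/− and 245 to 290 in NK-depleted *Ptgs*−/− libraries. The neutrophil genes *S100a8* (−1.26) and *S100a9* (−1.14), 2 of 8 tested neutrophil markers, were lower in *Ptgs*−/− tumors with NK cells than without, where 0.921% of all tested genes were lower and passed. Neutrophil sums were 467 to 708 CPM in *Ptgs*+/+, 115 to 178 in *Ptgs*−/− (*Ly6g* at 0) and 192 to 247 in NK-depleted *Ptgs*−/− libraries. *Ptgs*−/− replicate 2, the highest library for *Ctla4*, *Pdcd1*, *Cd86* and *Lgals9*, also had the highest macrophage and dendritic sums, and *Ptgs*−/− replicate 1, the highest for *Cd274*, had the lowest of the *Ptgs*−/− group. The part of these cells in the member differences was not tested.

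Counts of each member were therefore also set against the summed counts of such markers, *Pdcd1* and *Ctla4* against the T cell list and the other 6 tested members against the macrophage and dendritic lists together. The largest single part of that combined sum was *C1qa* (group means of 765, 1430 and 1071 CPM in *Ptgs*+/+, *Ptgs*−/− and NK-depleted *Ptgs*−/− tumors). None of the 24 comparisons (8 members, 3 comparisons) passed after adjustment (exact two-sided permutation tests, smallest adjusted p = 0.457), and with 3 or 4 libraries a group none could. *Cd86* per 1000 marker counts was 4.94 ± 0.378 (SD, n = 4) in *Ptgs*+/+, 5.10 ± 0.704 (SD, n = 3) in *Ptgs*−/− and 4.04 ± 0.627 (SD, n = 3) in NK-depleted *Ptgs*−/− tumors. The log2 difference of *Ptgs*−/− minus *Ptgs*+/+ was thus 0.04 (SE 0.13) per marker level where it had been 0.93 per library. *Cd274* kept a log2 difference of 0.32 (SE 0.50) and *Cd80* of 0.27 (SE 0.56), which turned to −0.10 without *Ptgs*−/− replicate 1 and to −0.17 without *Ptgs*+/+ replicate 3, respectively. *Pdcd1* per T cell marker was lower in *Ptgs*−/− than in *Ptgs*+/+ tumors by 0.81 (SE 0.46) and *Ctla4* by 0.25 (SE 0.51), both within overlapping ranges.

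Against *Ptgs*+/+ tumors, NK-depleted *Ptgs*−/− tumors held more *Cd80* (5.65 ± 2.44 in *Ptgs*+/+, SD, n = 4, and 8.25 ± 0.803, SD, n = 3), less *Havcr2* (2.80 ± 0.384, SD, n = 4, and 1.78 ± 0.271, SD, n = 3) and less *Lgals9* (10.8 ± 0.613, SD, n = 4, and 8.29 ± 0.562, SD, n = 3) per 1000 macrophage and dendritic marker counts, without overlap of the groups. Each had an exact two-sided permutation p = 0.0571, the smallest possible here, and an adjusted p of 0.457. The levels of *Havcr2* per library had not differed in this way, with group means of 6.37, 7.24 and 6.10 CPM.

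**Figure D3:**
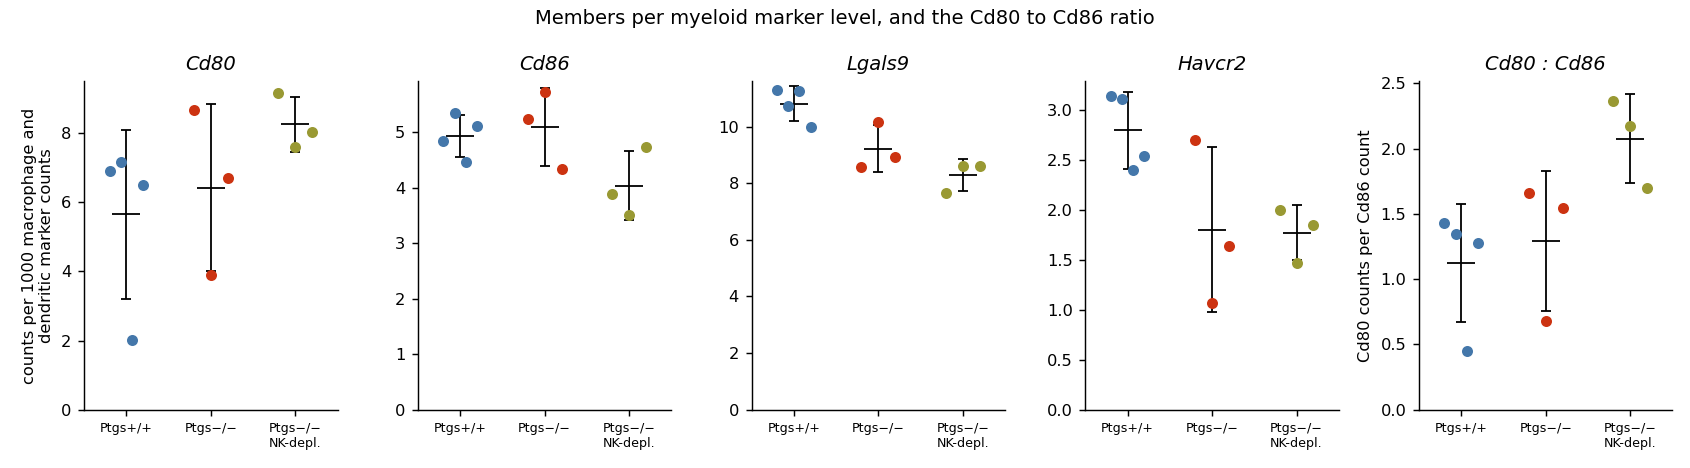
Counts of *Cd80*, *Cd86*, *Lgals9* and *Havcr2* per 1000 summed macrophage and dendritic marker counts, and *Cd80* counts per *Cd86* count (right), in each library (points, linear axes from 0) with the mean and SD of each group (black bars), for *Ptgs*+/+ (n = 4), *Ptgs*−/− (n = 3) and NK-depleted *Ptgs*−/− tumors (n = 3). *Cd86* of *Ptgs*+/+ and *Ptgs*−/− tumors overlaps on this scale, and the *Cd80* to *Cd86* ratio of NK-depleted libraries (1.70 to 2.36) is above all others.

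Genes of related pathways were counted from lists, to be read against the 12.1% of all tested genes that passed with the higher level in *Ptgs*−/− tumors. In the list of other B7 and CD28 family genes, 6 of 7 tested members were higher, with *Cd276* the exception (log2 fold change 0.28). They included the co-stimulatory receptors *Cd28* (log2 fold change 2.02) and *Icos* (2.28), the ICOS ligand gene *Icosl* (1.46, from 11.3 ± 1.06 CPM, SD, n = 4, to 32.5 ± 10.1, SD, n = 3) and the inhibitory receptor *Btla* (1.08). Of 6 tested genes of TNF family co-stimulation, 4 were higher. They were *Cd40* (1.56), through which helper T cells license antigen-presenting cells, and the co-stimulatory receptor genes *Tnfrsf4* (OX40, 1.84), *Tnfrsf18* (GITR, 1.72) and *Cd27* (2.68). *Tnfrsf9*, the gene of 4-1BB, was one of the 2 that did not pass (−0.12). *Cd28*, *Icos* and *Cd160* of the first list and *Cd27* of the second met the low-count filter only through *Ptgs*−/− libraries. Their part in these counts is a description. No gene of these lists passed between *Ptgs*−/− tumors with and without NK cells, and the nearest was *Tnfrsf18* (log2 fold change 1.03, edgeR adjusted p = 0.0877). Against *Ptgs*+/+ tumors, *Cd28* and *Icosl* as well as *Cd40* and *Tnfrsf4* still passed in NK-depleted tumors, and *Tnfrsf9* was lower there (−1.01, edgeR adjusted p = 0.0379).

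Of 13 tested genes for other inhibitory ligands, receptors and their phosphatases, 5 were raised in *Ptgs*−/− against *Ptgs*+/+ tumors and 1, *Hmgb1*, a ligand of TIM-3, was lower (−0.37). The shares of all tested genes were 12.1% higher and 11% lower. In this list 7 genes did not pass and the median was 0.22. The higher ones included *Ptpn6*, the gene of the phosphatase SHP-1 (1.09, from 36.3 to 80.3 CPM), *Cd200r1* (1.14), *Pirb* (1.06) and *Sirpa* (0.57), receptors that restrain myeloid cells. Of 8 tested genes of the kynurenine pathway and its transport and response, 3 were higher, *Kynu* (2.78), *Kmo* (1.01) and *Haao* (1.67), which act downstream of IDO1, while 5 did not pass, among them the receptor gene *Ahr* at −0.43 (edgeR adjusted p = 0.0663). *Kynu* had 0 to 3 counts in *Ptgs*+/+ libraries, and its fold change depends on that floor. *Haao* had 4 to 9 counts there. Both met the low-count filter only through *Ptgs*−/− libraries, so that their part in the count of 3 is a description. *Kynu* also passed in NK-depleted against *Ptgs*+/+ tumors (2.496). No gene of either list passed for NK depletion.

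Of 12 genes of a short IFN-γ response list, 11 were raised in *Ptgs*−/− against *Ptgs*+/+ tumors, 7 were higher in NK-depleted *Ptgs*−/− than in *Ptgs*+/+ tumors, and 3 were higher in *Ptgs*−/− tumors with than without NK cells. The shares of all tested genes that were higher and passed were 12.1%, 6.63% and 0.515% in these comparisons. The 3 were the chemokine gene *Cxcl9* (31.0 CPM against 9.83, log2 fold change 1.63, edgeR adjusted p = 0.0386), *Gbp2* (0.82) and *Irf1* (0.50). *Tap1*, a peptide transporter gene of antigen presentation, was just above the threshold (0.90, edgeR adjusted p = 0.0524). *Cd274* had a log2 fold change of the same size (0.92) in that comparison and a larger error. In the comparison of *Ptgs*−/− with *Ptgs*+/+ tumors, *Cd274* rose by 1.11 where the list had a median of 1.53.

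**Figure D4:**
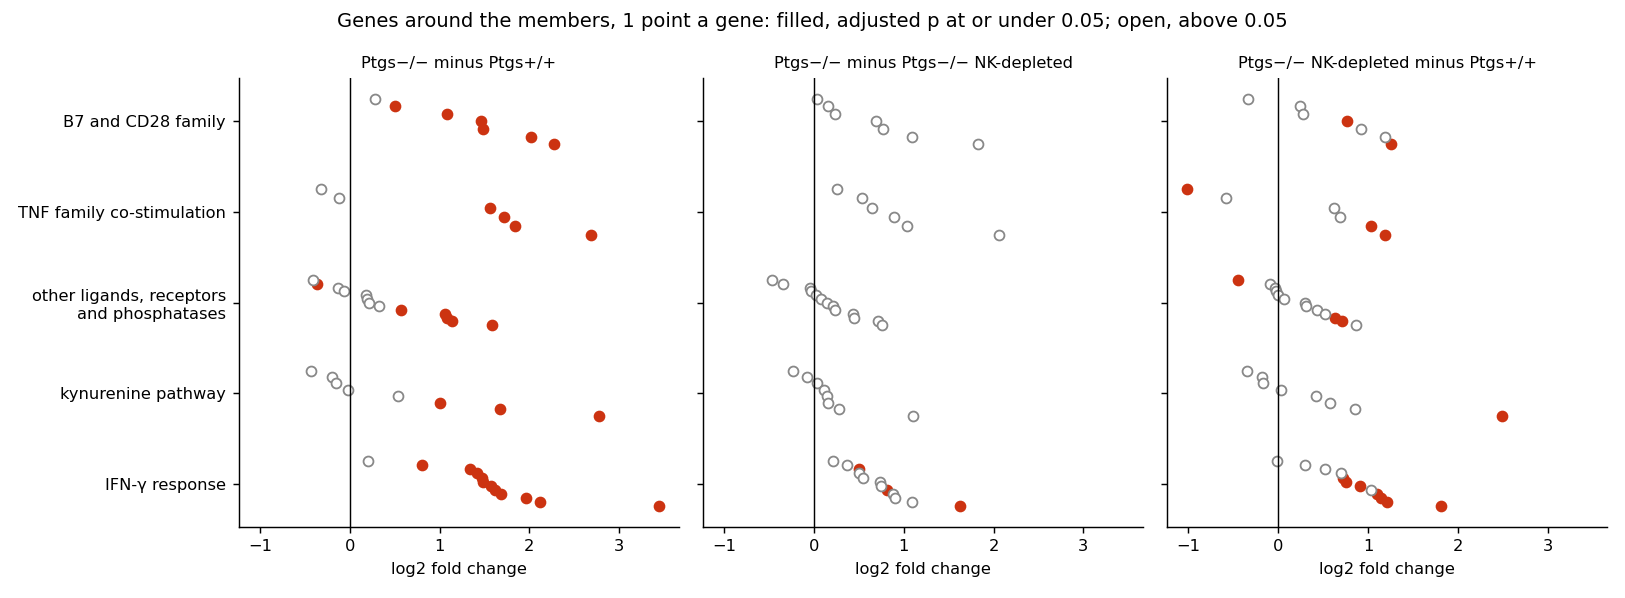
Log2 fold changes of the tested genes of 5 lists in 3 comparisons, from edgeR, 1 point a gene, stacked within each list by value. Filled points passed at an adjusted p at or under 0.05. Most co-signalling and IFN-γ response genes are to the right of 0 and filled in *Ptgs*−/− minus *Ptgs*+/+, and only 3 IFN-γ response genes are filled in *Ptgs*−/− minus NK-depleted *Ptgs*−/−.

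Other cells also differed. All 7 tested NK cell markers, among them *Klrb1c* and *Nkg7*, rose in *Ptgs*−/− relative to *Ptgs*+/+ tumors and were lower after depletion (summed level 10.7 to 31.6, 73.1 to 156 and 5.56 to 6.37 CPM in *Ptgs*+/+, *Ptgs*−/− and NK-depleted *Ptgs*−/− libraries, with *Ncr1* and *Prf1* at 0 in the last). The shares of all tested genes that passed in these directions were 12.1% and 0.515%. Among the 7, *Klre1* had 3 to 8 and *Ncr1* 7 to 12 counts in *Ptgs*+/+ libraries. Both met the low-count filter only through *Ptgs*−/− libraries, so that their part in these counts is a description. All 6 skeletal muscle markers were higher in NK-depleted *Ptgs*−/− tumors than in both other groups. Of all tested genes, 6.63% passed as higher there than in *Ptgs*+/+ and 0.921% as higher than in *Ptgs*−/− tumors. The muscle markers had sums of 21.4 to 170 CPM in *Ptgs*+/+, 111 to 374 in *Ptgs*−/− and 2350 to 5553 in NK-depleted *Ptgs*−/− libraries. Their part in the member differences was not tested. With 62 muscle genes removed from the table, an alternative added after seeing the data, the *Ptgs*−/− minus NK-depleted log2 fold change was 0.94 for *Cd274* and −0.14 for *Cd80*, which changes the scaling of the libraries and not the tissue in them. Between *Ptgs*−/− and *Ptgs*+/+ tumors, 5 of 8 tested neutrophil markers and 3 of 5 endothelial markers were lower, where 11% of all tested genes were lower and passed. Of tested markers, 2 of 3 for regulatory T cells, 2 of 2 for B cells and 4 of 9 for migratory dendritic cells were higher, against 12.1% of all tested genes. None of 3 tested melanocytic markers passed. *Mlana* and *Tyrp1* had no count in *Ptgs*+/+ libraries, while *S100b*, *Mitf* and *Sox10* were detected.

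Across the 10 libraries, log2(CPM + 1) of *Cd86* followed that of *Lgals9* (Pearson's r = 0.91) and *Pdcd1* (r = 0.89), and *Ctla4* followed *Lgals9* (r = 0.87). *Cd274* was closest to *Pdcd1* among the members (r = 0.73), and *Havcr2* was apart from most of them (r = −0.31 to 0.69). Over all tested genes, the level of *Cd274* was most like those of *Ogt* (r = 0.97), *Stxbp5* and *Zkscan3*, that of *Pdcd1lg2* most like *Shcbp1l* (r = 0.97), that of *Pdcd1* most like *Hps3* (r = 0.97) and that of *Ctla4* most like *Col6a3* (r = 0.98). *Cd80* was most like *Aldh3a2* (r = 0.98), *Cd86* most like *Slco3a1* (r = 0.99), *Lgals9* most like *Cldn11* (r = 0.98) and *Havcr2* most like *Scyl3* (r = 0.89). These are descriptions over 10 libraries that share the differences between the 3 groups, picked as the highest among 14550 genes.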

How the data were processed

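The authors prepared 3′ libraries (QuantSeq) from bulk tumor RNA, used STAR for alignment (GRCm38) and deposited raw counts per gene, with 1 column for each of 10 tumors and no normalization. Whether counting used strand is not given in the sources used here. Genes were named with GENCODE release M21 on the same build (45143 of 45706 identifiers). CPM are counts scaled by the library total. In R 4.3.3, edgeR 4.0.16 kept 14550 genes (filterByExpr) and tested all 10 libraries in 1 model with TMM factors and quasi-likelihood tests, Benjamini-Hochberg adjusted over all genes. "Called" adds the study's threshold, an absolute log2 fold change of 1.5. Single values were compared by two-sided exact permutation tests, and ratios used a pseudocount of 0.5. *Lag3* and *Ido1*, near the floor, were left out of the marker ratios, so that adjustment was over 24 tests instead of those planned.

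The members and lists were chosen with earlier results of these data known. Lists for co-signalling, kynurenine, IFN-γ response and cell types were written from general knowledge, and up to 4 genes of each with the lowest p in the first comparison were named. *Cd276*, *Hmgb1* and *Tnfrsf9* were named after their values were seen, as were markers at 0. Alternatives were DESeq2 1.42.0, library size alone, other filters, a likelihood ratio test, experiment code, fewer groups, replicate number as a block and each library left out. The pipeline was tested on simulated data. The labels give the depletion on day 0 and day 2, and the study's methods give another schedule. Deviations from the group mean correlated by −0.24 to 0.36 between samples with the same label number. Between samples with different numbers they correlated by −0.43 to 0.17. The ranges overlapped, although the highest value was of a pair with the same number, and the numbers were taken as names only. No pair of libraries agreed within counting noise. Counting floors cover counting error only.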

Additional observations from a re-analysis of the deposited data

Results flagged for a closer look

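Within the 4 *Ptgs*+/+ libraries, 1 library stood apart from the others in 5 of 20 sets of values by Dixon's criterion, which compares the gap to the nearest library with the range, where chance gives about 1 in 20. Replicate 3 was lowest for *Cd80* (5.00 CPM), for *Cd80* per 1000 macrophage and dendritic marker counts (2.01) and for *Cd80* counts per *Cd86* count (0.449), which all rest on the same *Cd80* counts. Replicate 3 was also lowest for *Ctla4* (0.0878 CPM, a difference of 2 to 3 counts). Replicate 2 was the only *Ptgs*+/+ library with a *Lag3* count (0.103 CPM, from 1 count). The rate of 1 in 20 is for independent sets of continuous values. It does not hold for the few counts of *Ctla4* and *Lag3* or for sets that share *Cd80* counts. The 5 of 20 therefore does not measure an excess.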

How the results depend on the processing

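Between *Ptgs*−/− and *Ptgs*+/+ tumors, 5 members passed in the main fit, 3 within the first experiment code, 3 with these groups alone and 2 to 6 with a library left out. The lowest of these, 2, was without *Ptgs*−/− replicate 2. No member passed for NK depletion under any alternative. Between NK-depleted *Ptgs*−/− and *Ptgs*+/+ tumors, 1 member passed, 2 with DESeq2, the likelihood ratio test or the replicate block, 3 without a filter and 0 to 2 with a library left out, with 0 when any NK-depleted library was left out. The replicate block, in which the label number is a term although the numbers were taken as names only, left 5 and 0 members in the other comparisons. Over all genes, 604, 167 and 395 were called in the 3 comparisons, 305, 36 and 142 under a filter of 10 counts per library, and 3360, 209 and 1818 by adjusted p alone. Within the first code 87 were called for depletion, and leaving out a library gave 100 to 213. Of 156 refits of single members between *Ptgs*−/− and *Ptgs*+/+ tumors, 14 lost and 9 gained a call.

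Signs turned with a library left out, never for a passing value. For fold changes, *Havcr2* between *Ptgs*−/− and *Ptgs*+/+ tumors ranged from −0.083 to 0.26, *Ctla4* for depletion from −0.24 to 0.997 and *Pdcd1* between NK-depleted and *Ptgs*+/+ tumors from −0.53 to 0.48. For log2 values per marker level between *Ptgs*−/− and *Ptgs*+/+ tumors, *Cd274* ranged from −0.10 to 0.60, *Cd80* from −0.17 to 0.60 and *Cd86* from −0.048 to 0.15. *Havcr2* per marker for depletion ranged from −0.41 to 0.26 and *Pdcd1lg2* per marker between NK-depleted and *Ptgs*+/+ tumors from −0.48 to 0.12. The *Cd80* to *Cd86* log2 ratio between *Ptgs*−/− and *Ptgs*+/+ tumors ranged from −0.16 to 0.65, and the *Cd274* to *Pdcd1lg2* ratio from −0.24 to 0.37, −0.27 to 0.72 and −0.59 to 0.39 in the 3 comparisons. The cause was not tested. Low counts limit what can be said of *Lag3*, *Ido1*, *Ctla4* and *Pdcd1*.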
